A study of Mus musculus with 4 samples.

Results

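Long intergenic non-coding RNA (lincRNA) probes made up 16246 of the 55681 non-control probes on an Agilent mouse expression array. They were chosen as the probes whose name starts with A_30_P, and the 5 that carry the name H19 were left out. The array was hybridised 4 times, each time with a pair of RNAs from cells of 2-week-old mice that carry EGFP (a green fluorescent protein) under a 2.3 kb fragment of the type I collagen promoter. Cells were released by enzyme digestion and sorted by their green signal, and the series describes them as donor matched. RNA of dental pulp cells, labelled as primary odontoblasts, the cells that lay down dentin, carried Cy5, and RNA of calvarial bone cells, labelled as osteoblasts, the cells that lay down bone, carried Cy3. The strain C57BL/6 is given for the pulp cells only. The promoter is active in any cell that makes type I collagen at a high rate, so a green cell is not by itself of either type, and the sources used here do not say how many animals went into each RNA. No array had its dyes exchanged, and all 4 shared 1 slide and 1 scan. A dye effect therefore cannot be told apart from a difference between the cells.

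Every ratio below is the log2 of Cy5 over Cy3, so a value above 0 means more signal in the Cy5 channel and 1 unit is a doubling. The channels are named by dye because known markers ran against the labels. Of 6 odontoblast markers, 3 were called toward Cy3 and none toward Cy5, with a median ratio of -2.50, and their summed intensity was 5646 to 8880.1 in Cy5 and 40990.4 to 91140.4 in Cy3. Of 10 osteoblast markers, 3 were called toward Cy5 and none toward Cy3, with a median of 2.23. If the labels had been exchanged, the ratios by dye would stay as they are, and only which cell type each dye stands for would turn. Markers of other cells moved too: all 4 tendon and periosteum markers (median 4.74) and 2 of 4 cartilage markers (median 3.32) were called toward Cy5, as were 2 of 6 leukocyte markers (median 1.94), and 2 of 5 measured markers of dental epithelium were called toward Cy3 (median -1.58). Their part in the lincRNA ratios was not tested. In RNA from a mixture of cells, more cells of a type and more RNA per cell cannot be told apart.

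LincRNAs are transcripts that lie between protein-coding genes, are mostly spliced and polyadenylated, and code for no known protein. They are usually less abundant and more restricted to particular cell types than messenger RNAs. Some act on chromatin, as Xist does in silencing an X chromosome, some build nuclear bodies, as Neat1 does in paraspeckles, and for most no function is known. Many were first listed as chromatin-marked or sequenced regions without a known strand, which is why an array can carry probes to both strands of a region.

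The probes are 60 bases long and fall in 3554 regions, each named by its position on the mouse genome build mm9. Of these regions, 2487 had probes to 1 strand and 1067 to both, with 1 to 20 probes a region (median 3), and 8199 probes read the forward and 8047 the reverse strand. The regions had a median length of 7329 bases. Only 52 probes carried one of 11 transcript names, and 118 had no position. No genome of that build was at hand, so whether a probe lies in an exon or an intron was not analysed here, and its surroundings are described by the nearest probe of a named gene.

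The sequences of called probes that the results below turn on are shown first, since for most of them the region has no name. They were picked from loci described below and are not the largest ratios in order. Each is written 5′ to 3′ with its mm9 position, and capitals mark a stretch of at least 16 bases that another probe on the array also holds, on the same or the opposite strand. The first set lies toward Cy5. It holds the called probe with the largest ratio and a pair from a region whose nearest gene is Cfhr2. It also holds 3 probes from among the genes Ifi207 and Ifi204, of which 2 lie about 53 kb apart and share a stretch. In A_30_P01023338 the capitals mark a match to a different probe, A_30_P01024771, and stop before the stretch shared by the 2 ends. A further pair overlap on opposite strands.
A_30_P01019184 (chr1:85038372-85038431, reverse strand): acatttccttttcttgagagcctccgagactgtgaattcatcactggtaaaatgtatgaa
A_30_P01026213 (chr1:141832900-141832959, forward strand): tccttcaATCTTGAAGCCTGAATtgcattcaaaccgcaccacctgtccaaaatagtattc
A_30_P01019675 (chr1:141832840-141832899, forward strand): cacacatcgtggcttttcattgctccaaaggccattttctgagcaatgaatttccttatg
A_30_P01031957 (chr1:175711115-175711174, forward strand): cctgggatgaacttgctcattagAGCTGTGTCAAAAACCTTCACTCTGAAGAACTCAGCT
A_30_P01021597 (chr1:175657539-175657598, reverse strand): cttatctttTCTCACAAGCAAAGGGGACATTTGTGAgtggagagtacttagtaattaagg
A_30_P01023338 (chr1:175710909-175710968, reverse strand): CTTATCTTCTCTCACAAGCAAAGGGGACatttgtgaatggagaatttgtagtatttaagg
A_30_P01027104 (chr6:3349390-3349449, forward strand): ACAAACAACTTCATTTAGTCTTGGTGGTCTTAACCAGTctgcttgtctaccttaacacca
A_30_P01029470 (chr6:3349368-3349427, reverse strand): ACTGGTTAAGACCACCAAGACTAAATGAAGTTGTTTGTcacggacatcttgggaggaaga
A_30_P01033603 (chr2:33500968-33501027, forward strand): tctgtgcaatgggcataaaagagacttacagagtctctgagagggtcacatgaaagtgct
A_30_P01021277 (chr13:78370483-78370542, reverse strand): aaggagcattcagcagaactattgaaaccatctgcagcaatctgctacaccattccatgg
A_30_P01026730 (chr7:128366536-128366595, reverse strand): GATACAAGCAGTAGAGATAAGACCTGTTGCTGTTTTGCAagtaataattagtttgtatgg

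The second set holds probes toward Cy3, of which the first has the smallest adjusted p-value of that direction and the last is identical to a probe of a named gene.
A_30_P01022376 (chr12:82459715-82459774, reverse strand): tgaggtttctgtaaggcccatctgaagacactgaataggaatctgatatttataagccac
A_30_P01017703 (chr13:28760269-28760328, reverse strand): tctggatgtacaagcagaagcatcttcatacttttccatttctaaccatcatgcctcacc
A_30_P01032396 (chr13:28975220-28975279, forward strand): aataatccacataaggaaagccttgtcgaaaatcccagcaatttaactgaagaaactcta
A_30_P01028108 (chr9:14467346-14467405, reverse strand): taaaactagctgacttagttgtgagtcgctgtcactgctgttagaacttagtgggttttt
A_30_P01026320 (chr6:31786303-31786362, reverse strand): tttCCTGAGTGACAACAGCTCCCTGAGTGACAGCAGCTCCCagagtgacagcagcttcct
A_30_P01022829 (chr1:78591616-78591675, reverse strand): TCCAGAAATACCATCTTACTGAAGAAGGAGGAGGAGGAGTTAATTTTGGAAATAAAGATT

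Detection was read from the scanner software's flag for a spot well above background. In the Cy5 channel 78.3%, 77.6%, 72.1% and 85.05% of the lincRNA probes carried it on arrays 1 to 4, and in the Cy3 channel 75.8%, 71.8%, 64.1% and 80.5%. Array 3 was lowest and array 4 highest in both channels, and on each array the share was higher in Cy5. The other probes of the array were detected more often on every array and in both channels, at 76.9% to 85.3% in Cy5 and 69.3% to 81.1% in Cy3. By the software's other flag, for a positive and significant spot, this turned on array 4 in both channels and on array 1 in Cy3, where the share of the other probes minus that of the lincRNA probes was -0.76, -1.09 and -0.057 percentage points, in the order array 4 in Cy5, array 4 in Cy3 and array 1 in Cy3. The median signal of a lincRNA probe was 4.75 to 5.95 times its local background in Cy5 and 7.83 to 11.6 times in Cy3. This is the depth that limits the ratios.

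Of the lincRNA probes, 12583 (77.5%) passed a filter (the flag on 3 or 4 arrays in 1 of the channels) and were tested, against 80.3% of the other probes. The remaining 3663 were not tested. On all 4 arrays and in both channels 9314 lincRNA probes (57.3%) were well above background, against 63.8% of the others, and 1447 never were. The median GC content was 45.0% for the tested probes and 38.3% for those left out. A set of 61 probes was well above background on 4 arrays in Cy5 and on none in Cy3. All 61 had a ratio above 0, between 0.11 and 1.52, but limma called none of them, with a smallest adjusted p of 0.0693 and 23 at an unadjusted p under 0.05. The reverse pattern was seen in 6 probes, with ratios of -2.35 to -0.66. None was called, with a smallest adjusted p of 0.128, and all 6 had an unadjusted p under 0.05.

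The median ratio of the lincRNA probes on arrays 1 to 4 was 0.03, 0.02, -0.05 and 0.01. The loess normalization sets the bulk of each array near 0, so these medians do not show equal signal in both channels, and without it the median over the tested lincRNA probes was 0.92. The SD over probes was 0.900, 0.833, 1.11 and 0.695, so array 3 spread most and array 4 least. Across lincRNA probes the ratios of any 2 arrays correlated with r between 0.23 and 0.42, which describes these arrays and has no p. The median SD between arrays was 0.49 for a lincRNA probe and 0.52 for another probe.

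In the limma fit over all 44239 tested probes, 140 lincRNA probes (1.11% of those tested) had an adjusted p under 0.05, where 1.62% of all probes tested and 1.81% of those other than lincRNA probes did. Toward Cy5 there were 88 (0.699%, against 0.999% of all probes tested and 1.1% of those other than lincRNA probes) and toward Cy3 52 (0.413%, against 0.624% and 0.708%). The lincRNA shares thus lay below those of the whole array, and no test was made of that difference. All 140 had 1 sign on the 4 arrays. Their size ran from 1.14 to 4.65 on the log2 scale with a median of 2.32. Of these, 108 were well above background with both dyes on every array, and their ratios were 2.21-fold to 18.6-fold. The other 32 were dim in a channel on at least 1 array, so the size of their ratios depends in part on the background. A mean beyond 2-fold in either direction was found for 1072 lincRNA probes (8.52%) and for 11.3% of the others. The p-values rest on how far these 4 arrays differ, which may be partly technical.

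The number of calls rested on having 4 arrays. Without array 1 and without array 2, limma called no lincRNA probe, with 1374 and 1588 at an unadjusted p under 0.05. Without array 3 there were 55 calls (35 toward Cy5), and without array 4 there were 2, both toward Cy5. With the arrays only centred on their median in place of an intensity-dependent loess curve, 389 were called toward Cy5 and 110 toward Cy3, and the share of calls toward Cy5 went from 62.9% to 78.0%.

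Called probes were brighter than the other tested lincRNA probes, with a median mean log2 intensity of 9.50 against 8.47, and had the same median GC content of 45.0%. They lay at a median of 27816.5 bases from the nearest gene probe, against 21962 for those not called. They read the forward strand in 75 cases (53.6%, against 50.7%). They lay on 17 of 20 chromosomes. Chromosome 1 held the most, with 31 of its 942 tested probes (3.29%), where 1.11% of all tested lincRNA probes were called. Of these 31, 16 lay in 1 locus described below. The shares on chromosomes 18 and 7 were 2.80% and 2.77%. These too came mostly from few places: 9 of the 12 calls on chromosome 18 lay in 1 locus. Of the 16 on chromosome 7, 9 lay in 1 locus and 5 in another. When called probes less than 100 kb apart were joined, they formed 62 loci, 35 toward Cy5 and 27 toward Cy3. No locus held calls in both directions. In 38 loci a single probe was called, while the 6 with the most held 51 of the 140, and 8 held calls on both strands.

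**Figure D1:**
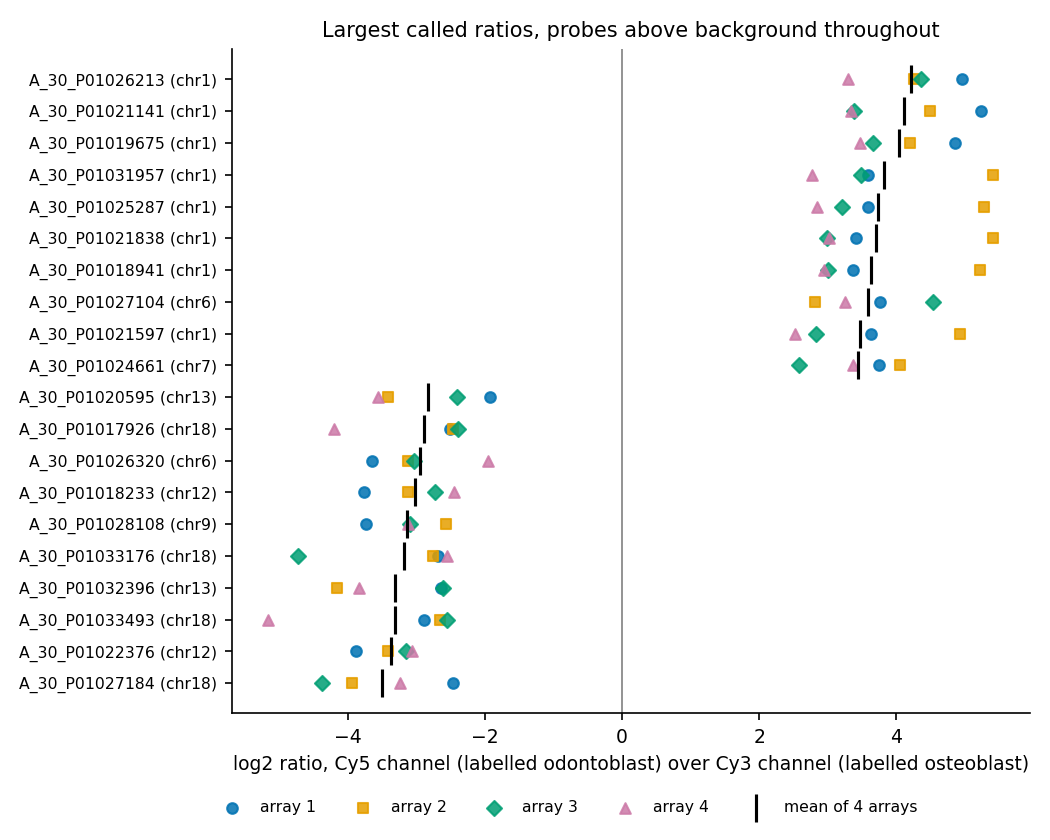
Log2 ratio of Cy5 over Cy3 (horizontal axis) of the 10 called lincRNA probes with the largest mean ratio toward each channel among those detected with both dyes on every array, with 1 point per array and a bar for the mean. The probes drawn have 1 sign on every array, as all 140 called probes do, so points on 1 side of 0 are no separate result. Probes dim in a channel on some array, such as A_30_P01019184, are not drawn.

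Among called probes, the largest ratios toward Cy5 came from chromosome 1 near 85.04 Mb, a place picked here after its values were seen. A_30_P01019184, on the reverse strand, had ratios of 5.12, 5.67, 3.48 and 4.33 on arrays 1 to 4, with a mean of 4.65 (SE 0.39, adjusted p = 0.0144). A_30_P01017898, about 2.7 kb away on the forward strand, had 4.38, 5.14, 3.51 and 4.32, with a mean of 4.34 (SE 0.29, adjusted p = 0.00921). Array 2 was highest and array 3 lowest for both. Each was well above background on 4 arrays in Cy5 and on 2 in Cy3. All 4 called probes there pointed to Cy5, but only 4 of the 5 tested lincRNA probes in that span had a mean above 0. The nearest gene probe, that of the unnamed transcript A530032D15Rik, had a ratio of 0.21. A_30_P01017898 holds 21 bases of the opposite strand of A_55_P2186220, a probe of another unnamed transcript. That probe had ratios of 2.95, 4.28, 1.74 and 3.71, with a mean of 3.17 (adjusted p = 0.0403).

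Near 141.83 Mb on chromosome 1 a forward-strand region had 4 called probes, all well above background in both channels on every array. A_30_P01026213 had ratios of 4.96, 4.25, 4.36 and 3.30, with a mean of 4.22 (SE 0.30, adjusted p = 0.00986). A_30_P01019675, directly beside it, had 4.85, 4.20, 3.65 and 3.47, with a mean of 4.04. Array 1 was highest for both, and no array fell below 3. The 4 called probes lay between 3.09 and 4.22. A probe of the same region and strand, A_30_P01024193, had -0.75, -0.98, -0.19 and -0.25, with a mean of -0.54 (adjusted p = 0.261), so the probes of the region did not all point one way. The nearest gene is Cfhr2, a complement factor H related gene, whose probes lay over 100 kb away and were both called toward Cy5, one with a mean of 3.48 (adjusted p = 0.0299) and one with ratios of 4.38, 4.19, 4.65 and 2.76 (adjusted p = 0.0160).

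The locus with the most calls was chr1:175657539-175711294, where 16 probes were called toward Cy5, 6 on the forward and 10 on the reverse strand. All 21 tested probes of that span had a mean above 0. It lies among Ifi207 and Ifi204, members of a family of interferon-inducible genes whose proteins bind DNA. A_30_P01031957 had ratios of 3.59, 5.41, 3.48 and 2.77, with a mean of 3.81 (SE 0.45, adjusted p = 0.0284). Array 2 was the highest for this probe, and it was also highest for 15 of the 16 called probes. Their means ran from 1.87 to 3.81. Among the probes not called, 4 on the forward strand had larger means, from 4.37 to 4.65, but array 3 was low for all of them (1.63 to 1.88) and array 2 high (6.28 to 6.76), and their adjusted p was 0.0578 to 0.0714. The 2 Ifi207 probes had means of 3.35 (adjusted p = 0.0168) and 0.98 (adjusted p = 0.228), and the 2 Ifi204 probes 3.69 (adjusted p = 0.0608) and 2.36 (adjusted p = 0.0757).

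**Figure D2:**
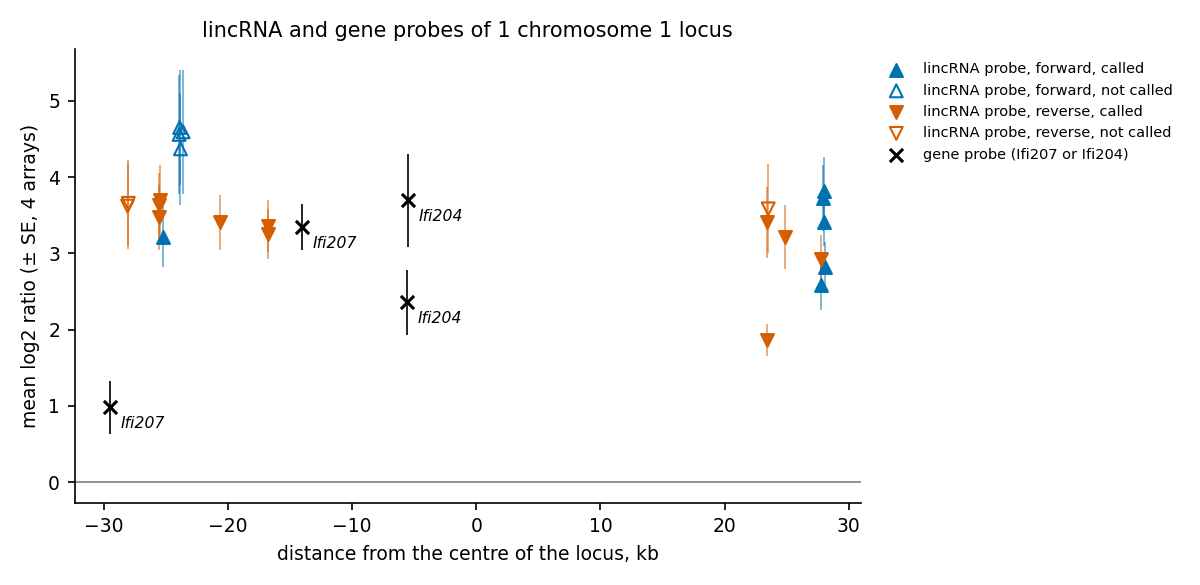
Mean log2 ratio of Cy5 over Cy3 over 4 arrays of the tested lincRNA and gene probes of the locus on chromosome 1, by distance from its centre in kb, with lines for the SE; triangles are lincRNA probes (up for forward, down for reverse, filled where called) and crosses gene probes. All 21 tested lincRNA probes lie above 0 on both strands.

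Sequence sharing bears on how many separate measurements such a locus holds. A_30_P01021597 and A_30_P01023338, printed above, lie about 53 kb apart and hold 27 bases in common. The first had ratios of 3.63, 4.92, 2.83 and 2.51, and the second 2.98, 3.84, 2.83 and 2.07, so array 2 was highest and array 4 lowest in both. A_30_P01031957 holds 37 bases of the opposite strand of a probe for Gm16340, which had 3.26, 4.92, 3.11 and 2.25 (adjusted p = 0.0359). Of all 140 called probes, 58 shared at least 16 bases with another probe on the array.

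Other loci toward Cy5 were smaller. On chromosome 6 near 3.35 Mb, A_30_P01027104 on the forward strand had ratios of 3.77, 2.82, 4.53 and 3.24, with a mean of 3.59 (SE 0.32, adjusted p = 0.0160). A_30_P01029470, which overlaps it by 38 bases on the reverse strand, had 3.85, 2.79, 4.09 and 2.92, with a mean of 3.41 (SE 0.29, adjusted p = 0.0154). The arrays kept the same order in both, with array 3 highest and array 2 lowest. Samd9l, an interferon-inducible gene about 27 kb away, had probes at 3.23 (adjusted p = 0.0353) and 2.76 (adjusted p = 0.0550).

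On chromosome 2 near 33.50 Mb, 5 forward-strand probes were called with means of 2.85 to 3.55. A_30_P01033603 had ratios of 2.96, 3.76, 3.69 and 3.80, with a mean of 3.55 (SE 0.22, adjusted p = 0.00785), and passed the flag in Cy3 on a single array. Array 1 was lowest and the other 3 lay close together. The probe of C130021I20Rik, a long non-coding transcript there, had 3.41, 2.39, 3.29 and 3.50 (adjusted p = 0.0123), while that of Lmx1b, a homeobox gene about 5.9 kb to the other side, had a mean of 0.39 (adjusted p = 0.494).

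On chromosome 13 near 78.37 Mb, 3 neighbouring reverse-strand probes were called. A_30_P01021277 had ratios of 4.03, 4.07, 4.17 and 2.85, with a mean of 3.78 (SE 0.28, adjusted p = 0.0113), with array 4 apart from the rest. Probes of the same region about 27 kb away did not share this, and A_30_P01026453 on the same strand had 0.12, -0.35, 0.32 and 0.06. The gene next to the region is Nr2f1, a nuclear receptor that acts as a transcription factor, and its 2 probes were both called toward Cy5, with means of 1.83 (adjusted p = 0.0358) and 4.47 (adjusted p = 0.00785).

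Chromosome 7 held 2 loci with calls on both strands. Near 111.53 Mb, 5 probes were called with means of 2.35 to 3.43, and A_30_P01024661 had ratios of 3.74, 4.05, 2.58 and 3.37. Trim30c, whose probe overlaps it, had a mean of 0.34 (adjusted p = 0.511). A_30_P01024838 of this locus shares 29 bases with a probe of Trim30d, of the same family of ubiquitin ligase genes, which had 4.54, 4.62, 2.54 and 3.98 (adjusted p = 0.0201). Near 128.37 Mb, 9 of 10 probes were called with means of 1.56 to 2.30, and the tenth had a mean of 1.17 (adjusted p = 0.0514). A_30_P01026730 had ratios of 1.80, 1.85, 1.66 and 1.90, close on all arrays. It shares 39 bases with a probe of Skap2, an adaptor protein gene on chromosome 6, which had 1.65, 1.72, 1.44 and 1.64 (adjusted p = 0.0218). The nearest gene on chromosome 7 itself, Otoa, lay about 75 kb away with a mean of -0.52 (adjusted p = 0.410).

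On chromosome 12, between 110.84 and 110.99 Mb, 7 probes from 6 regions were called with means of 1.27 to 3.29, a span singled out after its values were seen. Of 49 tested lincRNA probes in it, 43 had a mean above 0. A_30_P01023076 had ratios of 3.43, 2.77, 4.54 and 2.41, with array 3 highest. A probe of Mirg, a non-coding transcript that hosts microRNAs, about 1.1 kb away, had a mean of -0.00 (adjusted p = 0.995). Another Mirg probe had a mean of 0.59 and was not called.

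Toward Cy3, the locus with the most calls held 9 probes and is described last. On chromosome 12 near 82.46 Mb, all 3 tested probes of a reverse-strand region were called. A_30_P01022376 had ratios of -3.87, -3.42, -3.15 and -3.05, with a mean of -3.37 (SE 0.21, adjusted p = 0.00785). A_30_P01018233, about 0.1 kb away, had -3.76, -3.12, -2.73 and -2.46, with a mean of -3.02 (SE 0.26, adjusted p = 0.0160). Array 1 was lowest for both and array 4 nearest to 0. Cox16, a gene for assembly of a mitochondrial respiratory complex, has its probe 304 bases from the first of them and had a mean of -0.24 (adjusted p = 0.710).

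On chromosome 13 between 28.70 and 28.98 Mb, 7 probes in 2 loci were called, with means of -3.57 to -2.12, again a span chosen after its values were seen. A_30_P01017703 had ratios of -4.71, -3.52, -3.37 and -2.68, with a mean of -3.57 (SE 0.35, adjusted p = 0.0199), and was well above background in Cy5 on 3 arrays. A_30_P01032396 had -2.64, -4.15, -2.61 and -3.84, with a mean of -3.31 (SE 0.34, adjusted p = 0.0209). Array 1 was lowest for the first of these probes and array 2 for the second. The nearest gene probe on the array was that of Sox4, a transcription factor gene, 65.4 to 340.4 kb away, with a mean of -0.31 (adjusted p = 0.520).

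Single probes also stood toward Cy3. A_30_P01028108 on chromosome 9 had ratios of -3.73, -2.57, -3.09 and -3.13, with a mean of -3.13 (SE 0.24, adjusted p = 0.0116). A_30_P01026320 on chromosome 6 had -3.65, -3.13, -3.04 and -1.96, with a mean of -2.94 (SE 0.31, adjusted p = 0.0221). Array 1 was lowest for both. Other probes of their regions had smaller ratios. The 5 tested probes on the region and strand of A_30_P01028108 had a median of -0.51. A_30_P01027208, which shares 38 bases with A_30_P01026320, had a mean of -1.30 and was not called (adjusted p = 0.0773). On chromosome 2 near 36.11 Mb, 5 forward-strand probes had means of -2.75 to -1.91, and the probe of Ptgs1, a cyclooxygenase gene about 5 kb away, had a mean of -1.94 that was not called (adjusted p = 0.122). On chromosome 4 near 129.50 Mb, 4 overlapping forward-strand probes were called with means of -1.97 to -1.66, and the 10 tested probes of that strand had a median of -1.64. None of the 7 tested on the opposite strand was called, but 6 lay below 0 and their median was -1.67. A difference between the strands was not tested.

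The largest locus toward Cy3 was on chromosome 18 near 75.52 Mb, with 9 called probes on both strands and means of -3.50 to -1.96. A_30_P01027184 had ratios of -2.46, -3.94, -4.37 and -3.24, with a mean of -3.50 (SE 0.35, adjusted p = 0.0200). The arrays that were lowest differed between probes of the locus, since A_30_P01033493 had -2.89, -2.66, -2.55 and -5.16. The nearest gene probes, of Ctif and Dym, lay about 71 kb away and had means of 0.23 and -0.59.

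The ratios of probes to 1 region were compared within and between strands. Across pairs of tested probes of 1 region at most 100 bases apart, the mean ratios correlated with r = 0.741 for the same strand (4333 pairs) and r = 0.715 for opposite strands (2580 pairs). Above 2 and up to 10 kb r was 0.440 and 0.404, and above 10 and up to 50 kb 0.146 and 0.0624. Over all distances r was 0.566 for the same strand and 0.451 for opposite strands. The pairs share arrays, regions and in part sequence, so these values are a description. Of 276 opposite-strand pairs with a call, both probes were called in 57, and in all 57 they pointed the same way. Of 339 such pairs on 1 strand both were called in 96, again all the same way. The 57 pairs come from only 7 regions, and the 96 from 33 sets of 1 region and strand, so they are not separate events. Among the 7, chr1:175705225-175717250 and chr7:128341797-128414692 each held 5 called forward and 4 called reverse probes. Of the regions with tested probes on both strands, 7 had calls on both and 28 on 1 strand only, and in 19 of the 28 the medians of the strands had the same sign. Opposite-strand probes that overlapped by at least 30 bases had r = 0.795 (1177 pairs).

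**Figure D3:**
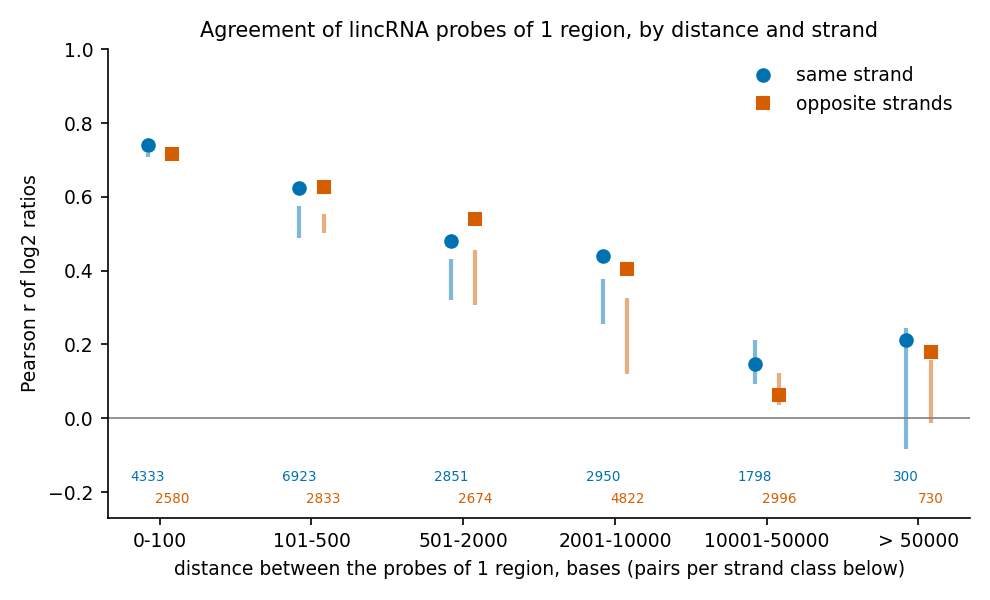
Pearson correlation of the ratios of 2 tested lincRNA probes of 1 region (vertical axis) by the distance between them, for the same and for opposite strands. Points are r of the means over 4 arrays and vertical lines the range of r within single arrays, which can lie below the point. Both strand classes fall from 0.741 and 0.715 at up to 100 bases to 0.146 and 0.0624 above 10 and up to 50 kb, and are at 0.211 and 0.178 beyond that, where pairs are fewest.

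Some opposite-strand pairs did not agree. A_30_P01025774 on chromosome 14 had ratios of 1.66, 1.32, 1.23 and 1.02, with a mean of 1.31 (adjusted p = 0.0462), while the probe that holds 52 of its bases on the other strand had 0.29, -0.19, 0.00 and -0.59. A_30_P01022822 on chromosome 13 had 1.50, 1.55, 0.91 and 1.32, while the probe to exactly the opposite strand did not pass the filter on low signal and had 0.09, 0.09, -0.17 and 0.08. These were picked after their values were seen. How the labelled product relates to the strand of the RNA is a point on which the sources used here are silent.

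Within a region and strand, probes often disagreed in sign. Of 2263 region strands with at least 3 tested probes, 849 (37.5%) had all means on 1 side of 0, and the median range between their probes was 0.64. A call was held by 82 region strands. Of these, 33 held 2 or more calls, none in both directions, while the 49 with a single call cannot show whether calls differ in direction. In 23 of the 82 the tested probes lay on both sides of 0. One is the forward strand of chr11:6421951-6429173, chosen after its values were seen, where the called probe had a mean of 1.52 and 7 of 9 tested probes were below 0.

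The ratio of a lincRNA probe was most like that of the nearest gene probe where the 2 were close. For the 176 lincRNA probes that overlap a gene probe r was 0.738, and within 1 kb it was 0.569 (869 probes). Above 1 and up to 10 kb r was 0.277 (2952), and above 10 and up to 50 kb 0.147 (4748). Overlap was read from the mapped start and end of a probe, which can lie far apart. A Psme2 probe spans chr14:56209736-56429032, and the called A_30_P01033549 lies inside that span. Of the 176, 91 overlap a gene annotated as a long non-coding RNA and 78 one annotated as protein coding, so some measure the same transcript. Of the 99 called lincRNA probes with a gene probe within 50 kb, 82 had the sign of that gene probe. The gene probe was itself called for 19, in the same direction for all 19, where 2.02% of all tested gene probes with a position were called (1.23% toward Cy5 and 0.793% toward Cy3). The 19 rest on 10 genes, with 5 of them beside C130021I20Rik, so they are not separate gene probes as those behind the 2.02% are. Among the 19 is A_30_P01033549, paired with the wide-spanning Psme2 probe, which had a mean of -1.46 (adjusted p = 0.0497). Other Psme2 probes had means of 0.17 and 0.49 (adjusted p = 0.748 and 0.345), so the gene's probes did not point one way.

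**Figure D4:**
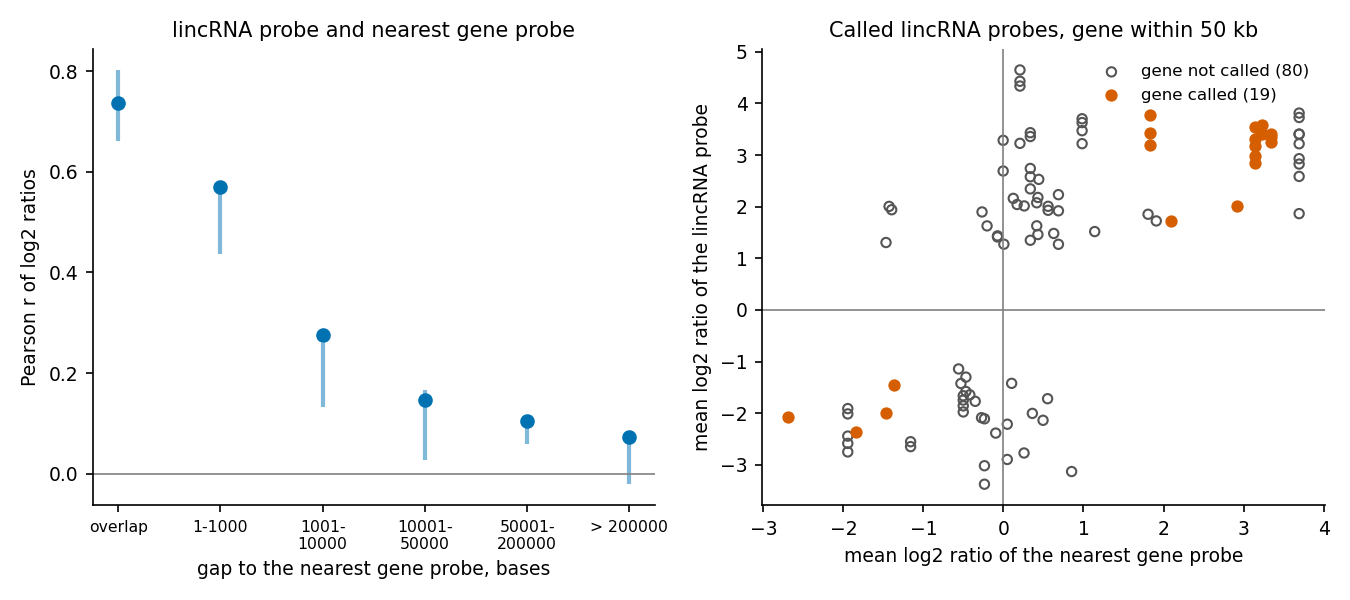
Pearson correlation between the ratio of a tested lincRNA probe and that of its nearest gene probe, by the distance between them. Points are r of the means over 4 arrays and vertical lines the range of r within single arrays. For probes whose mapped spans overlap r is 0.738, and above 10 and up to 50 kb it is 0.147.

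Examples on the Cy3 side were few. A_30_P01022829 on chromosome 1 has the same 60 bases as a probe of the long non-coding transcript 5730419F03Rik, and the pair gave means of -1.46 and -1.37, from 1 sequence placed on the arrays under 2 names. A_30_P01018304 on chromosome 15 had ratios of -1.20, -2.28, -2.48 and -2.36, and Apol8, an apolipoprotein L gene 571 bases away, had a mean of -2.69 (adjusted p = 0.0376). A_30_P01033580 on chromosome 16 had -2.79, -1.75, -3.29 and -1.65, and the 2 probes of Igf2bp2, which encodes an RNA-binding protein, had means of -1.84 (adjusted p = 0.0478) and -1.74 (adjusted p = 0.0357). For 80 called lincRNA probes with a gene probe within 50 kb, that gene probe was not called.

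The 5 brightest lincRNA probes were not called. A_30_P01031754, about 6.4 kb from the Malat1 probe on chromosome 19, had ratios of -0.57, -0.68, -0.64 and -0.29 (adjusted p = 0.196), while the Malat1 probe had a mean of 1.07. The lincRNA probe kept 1 sign on all arrays, opposite to the sign of the neighbour's mean.

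None of the 52 probes with a transcript name was called, and some of them did not pass the filter and were not tested. As 1.11% of all tested lincRNA probes were called, a set this small may well hold none. NEAT1, which builds paraspeckles, had 5 probes with means of 1.23 to 1.40 and adjusted p of 0.116 to 0.213. Array 3 was highest for all of them (2.07 to 2.84) and array 4 lowest (0.25 to 0.45). NEAT2, another name of Malat1, a nuclear speckle RNA, had 3 probes with means of 1.09 to 1.19, and here array 3 was lowest (-0.72 to 0.36). TUG1 had means of -0.51 to -0.09, lincP21, a transcript near a p53 target gene, -1.28 to -0.38, and KCNQ1ot1, an imprinted antisense RNA, -0.56 to 0.21. Of the 5 NRON probes 2 were tested, with means of 1.66 (adjusted p = 0.0811) and -0.17.

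XIST, the RNA that coats the inactive X chromosome in females, gave ratios that spread far more between arrays than their means lay from 0. Its 5 probes lay at -4.69 to -2.40 on array 1, 1.04 to 2.10 on array 2, -0.73 to -0.09 on array 3 and 0.90 to 1.08 on array 4, with means of -0.43 to -0.22. Genes of the Y chromosome were set beside it: Uty had ratios of 1.16, -1.95, -0.05 and -0.97, Kdm5d 0.78, -1.51, 0.26 and -0.25, Ddx3y -0.15, -1.58, 0.39 and -0.78, and Eif2s3y -0.70, -1.48, 0.61 and -0.57. On array 2 XIST was above 0 and all 4 genes were below it. On array 1, where XIST was lowest, Uty and Kdm5d were above 0 and Ddx3y and Eif2s3y below it. Of 53 known long non-coding RNA genes listed for description, 35 were measured by any probe, none was called, and their median ratio was 0.03. Among all probes tested 1.62% were called, so a list this short may well hold none.

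**Figure D5:**
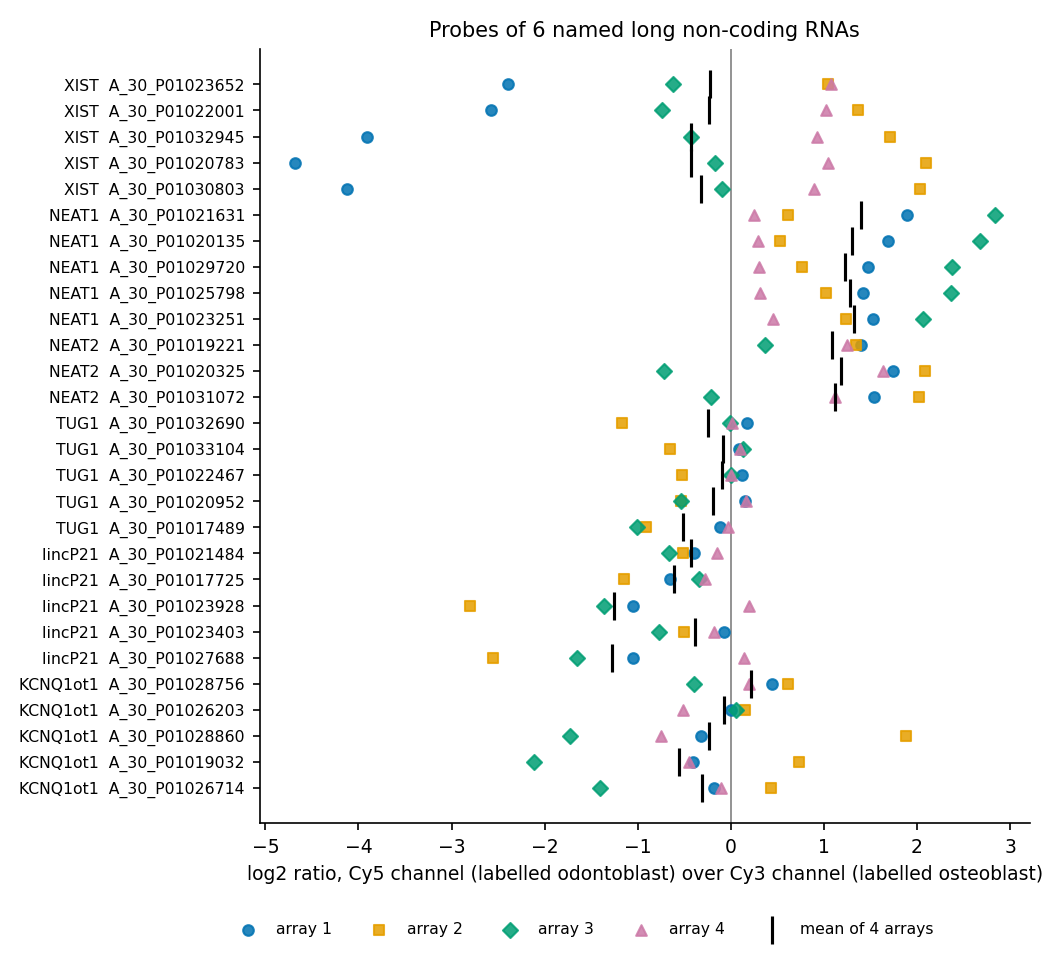
Log2 ratio of Cy5 over Cy3 on each array of the probes of 6 named transcripts, with 1 point per array and a bar for the mean. The XIST probes lie between -4.69 and -2.40 on array 1 and between 1.04 and 2.10 on array 2, and none of the probes drawn was called.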

How the data were processed

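RNA of 4 pairs of sorted cell samples was read on 4 two-colour arrays, replicates 1 to 4 of 1 group. Per the file headers, Agilent Feature Extraction 10.7.3.1 gave the authors' deposited intensity values (mean spot and median local background, both channels), processed intensity values, their log10 ratio and flags of 0 or 1. The deposited value table holds log10 values, and for 99.3% of probes it differed by at most 0.0001 (log2) from the ratio in the scanner files. Its direction and scale were found by that match, each column has a median of 0, and the sources used here name no later step by the authors.

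From the 62976 spots, 3671 control spots and outlier flags were left out. Intensities were corrected with normexp (offset 50) and loess within arrays in limma 3.58.1 (R 4.3.3), and spots of 1 probe averaged. log2 ratios, computed from the deposited intensities, were fitted on a constant with eBayes for the 44239 probes that were well above background on 3 or 4 of the 4 arrays in 1 of the channels. Tests were two-sided and adjusted by Benjamini and Hochberg's method over all of these probes. Signal over background and the number of arrays limit the precision. Gene symbols came from the files, or from RefSeq GRCm38.p6 through accessions (27235 probes) or names (3576), with 8619 other probes left without one. Tables were handled in Python 3.11.15 with pandas 2.3.3.

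Probes were named by rule: the 10 largest called per direction that were well above background throughout, called probes dim in 1 channel, the 8 regions with the most calls, the 5 brightest, called probes beside a called gene, and listed non-coding RNAs. The members and lists were chosen with earlier results of these data known. Alternatives changed background correction, normalization, filter, features, variance prior, values and arrays.

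The fit was tested on simulated data in 2 versions. The first drew each probe from its own SD between arrays, and it recovered no changed probe at a log2 change of 1 or 2. A second, with limma's moderated SD, was added after that was seen, and it recovered most at 2 but none at 1. Both recovered most at 4. Which spread is nearer the truth is not known, so how often changes near 4-fold are missed is not settled by these tests.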

Additional observations from a re-analysis of the deposited data

Results flagged for a closer look

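Among 140 named probes, 17 had 1 array whose distance to the nearest of the others exceeded Dixon's 95% critical value for 4 samples, as a share of the range, and chance gives about 1 in 20. Array 3 stood apart in A_30_P01022829 (-1.76), A_30_P01018169 (-1.43), the HOTAIR probe A_30_P01024447 (0.078), A_30_P01033176 (-4.72), the NEAT2 probes A_30_P01019221 (0.36) and A_30_P01020325 (-0.72), A_30_P01020785 (-3.27) and A_30_P01032009 (-2.40). Array 4 stood apart in A_30_P01021277 (2.85), A_30_P01017926 (-4.20), A_30_P01033493 (-5.16) and A_30_P01030179 (0.42). Array 2 stood apart in A_30_P01024163 (5.84) and in the TUG1 probes A_30_P01032690 (-1.17) and A_30_P01033104 (-0.66). Array 1 stood apart in A_30_P01018304 (-1.20) and A_30_P01033603 (2.96). Several of these probes share a region, so they are not separate events.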

How the results depend on the processing

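With 88 lincRNA probes called toward Cy5 and 52 toward Cy3, median centring gave 389 and 110, and no normalization within arrays gave 8006 toward Cy5. These settings moved the median of all probes to 0.16 and 0.97 (log2). The share of lincRNA probes with a called neighbour called the same way fell from 100% to 96.0% and 98.4%. Leaving out 1 array gave 0 to 35 calls toward Cy5 and 0 to 20 toward Cy3. Of the 140 called probes, 87 were also called from the software's processed signals, 105 with no filter and 45 without array 3. With the flag for a positive and significant spot, the share of lincRNA probes detected, cy5 channel, was 90.2% and the share of lincRNA probes detected, cy3 channel, 86.9%. The ratio of a lincRNA probe beside that of its nearest gene had r = 0.248, and 0.371 with the gene within 10 kb.

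Without normalization 16 named probes that had not been called turned from below to above 0 and were called: A_30_P01026751 at 0.80, A_30_P01033104 at 1.02, A_30_P01022467 at 0.99, A_30_P01020952 at 0.87, A_30_P01020310 at 0.86, A_30_P01018169 at 0.99, A_30_P01029786 at 0.61, A_30_P01021484 at 0.59, A_30_P01023403 at 0.61, A_30_P01020800 at 1.56, A_30_P01031754 at 1.33, A_30_P01029993 at 0.82, A_30_P01033355 at 0.79, A_30_P01031898 at 0.66, A_30_P01025521 at 1.33 and A_30_P01026203 at 1.25. That setting leaves the shift of all probes in every ratio. No named called probe changed its sign under any alternative run. Every called probe had 1 sign on the 4 arrays, so leaving out an array could not change it. Nor could the alternatives that reuse the same ratios. The calls themselves did not hold when an array was left out. All 57 named called probes lost their call without array 1, and also without array 2, while 55 lost it without array 4 and 35 without array 3. The fit is already a paired analysis, because each array's ratio is the difference within a pair. No further pairing was possible, as the 4 arrays form 1 group.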
